A study of Mus musculus with 9 samples.

Results

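Prostaglandins are made, moved and removed by a short chain of proteins, and 10 genes of that chain were examined here for 2 histone marks in mouse oviductal muscle: Pla2g4a, Ptgs1, Ptgs2, Ptges, Ptges2, Ptges3, Ptgis, Slco2a1, Abcc4 and Hpgd. They were chosen by name from 21853 protein-coding genes of the GENCODE M21 annotation, and every peak overlapping a gene body or the 50 kb on either side of it was taken, so that each gene had a locus of 108 to 324 kb. A peak was called a promoter peak if it lay within 1 kb of the start of a protein-coding transcript, an intragenic peak if it lay elsewhere in the gene body, and a flanking peak otherwise. The 6 replicate lists held 805 peaks at the 10 loci, of which 50 were promoter peaks, 344 intragenic and 411 flanking, against 678392 peaks in the whole genome.

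Chromatin was profiled by ChIC-Seq, where protein A fused to micrococcal nuclease is brought to a histone mark by an antibody, cuts there, and the freed fragments are sequenced. Primary oviductal muscle cells came from WT mice aged 8 to 12 weeks, which had been mated and were on day 2 (D2) of pregnancy, and each library was made from 50000 cells. There were 3 libraries of H3K27ac, 3 of H3K4me1 and 3 of a control IgG, all of them from the same genotype, day and cell type, so that the comparison available is of one mark with the other. The muscle cells were those that passed a filter after enzymatic digestion of the oviduct and had been plated for some hours, and the labels do not say whether the replicates came from different animals.

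Cytosolic phospholipase A2 frees arachidonic acid from membranes, a cyclooxygenase turns it into prostaglandin H2, and terminal synthases turn that into prostaglandin E2, prostacyclin and the other prostanoids. Prostanoids act on receptors at the surface of nearby cells, and they contract or relax smooth muscle according to the receptor, which is why they are studied in the transport of embryos along the oviduct. Acetylation of lysine 27 of histone H3 (H3K27ac) marks active promoters and enhancers, whereas monomethylation of lysine 4 (H3K4me1) marks enhancers and the flanks of active promoters, and is usually low over the start itself.

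The peak lists rested on 40551842 to 78891920 fragments of a mark and 3110985 to 3713369 fragments of IgG, and they held 93684 to 152889 peaks that covered 3.34% to 5.30% of the genome. The larger library had been scaled to the smaller, so the depth of the IgG limits every call. Peaks were listed down to a weak threshold, with a median fold over the local control of 1.43 to 1.62, and the labels do not tie a replicate number to an animal. A single IgG library served as the control of H3K4me1 replicates 1 and 2 and of H3K27ac replicate 2, and another as that of both lists of replicate 3. Lists of the 2 marks sharing an IgG library had peak ends at the same base in 1.93% to 5.12% of peaks, against 0.136% to 0.203% for lists that did not. Of 10 marker genes of smooth muscle, the labelled cell type, 4 had a promoter peak in all 6 replicate lists (Acta2, Des, Smtn and Synpo2), Tagln had one in 5, Cnn1 in 3, Myocd and Lmod1 in 2 each, and Myh11 and Actg2, which define differentiated smooth muscle, in 1 each. Of the stromal markers, 6 of 7 had a promoter peak in all 6 lists (Pdgfra in 5), where 24.3% of all genes did. None of the 7 epithelial, 4 endothelial or 5 immune markers had one in all 6, but each of the 4 endothelial markers had one in 1 to 4 lists. Of the epithelial markers, Krt8 had one in 4 lists, Ovgp1 in 3, Cdh1, Krt18 and Foxj1 in 1 each, and Epcam and Pax8 in none. Of the immune markers, Ptprc had one in all 3 H3K27ac lists, and Csf1r, Cd3e, Cd79a and Itgam had none. The part of stromal cells in the results was not tested.

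The promoters of the genes at both ends of the range are shown first. Pla2g4a, Ptgs2 and Hpgd had a promoter peak in all 6 replicate lists, whereas Ptgs1, Ptgis and Slco2a1 had one in 1 list each. The 250 bases before the start were taken from RefSeq (GRCm38.p6) for the 5 of these 6 genes with an entry, and capitals mark every match to the motifs named below.
Pla2g4a, chr1:149961291-149961540, minus strand: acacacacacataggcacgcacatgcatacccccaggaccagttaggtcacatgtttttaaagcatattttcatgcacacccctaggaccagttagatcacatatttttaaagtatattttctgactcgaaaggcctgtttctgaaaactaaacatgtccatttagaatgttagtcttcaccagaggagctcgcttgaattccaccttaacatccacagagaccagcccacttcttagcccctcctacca
Ptgs2, chr1:150099781-150100030, plus strand: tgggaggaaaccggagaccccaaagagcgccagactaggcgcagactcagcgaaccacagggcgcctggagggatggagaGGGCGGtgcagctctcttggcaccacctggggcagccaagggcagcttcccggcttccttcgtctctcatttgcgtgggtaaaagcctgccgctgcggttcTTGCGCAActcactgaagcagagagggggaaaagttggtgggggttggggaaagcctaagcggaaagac
Hpgd, chr8:56294302-56294551, plus strand: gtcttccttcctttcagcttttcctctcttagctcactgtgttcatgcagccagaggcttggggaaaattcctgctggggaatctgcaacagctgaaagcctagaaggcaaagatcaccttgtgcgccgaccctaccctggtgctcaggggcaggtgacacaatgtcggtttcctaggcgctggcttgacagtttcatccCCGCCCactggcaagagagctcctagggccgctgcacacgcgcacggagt
Ptgs1, chr2:36230176-36230425, plus strand: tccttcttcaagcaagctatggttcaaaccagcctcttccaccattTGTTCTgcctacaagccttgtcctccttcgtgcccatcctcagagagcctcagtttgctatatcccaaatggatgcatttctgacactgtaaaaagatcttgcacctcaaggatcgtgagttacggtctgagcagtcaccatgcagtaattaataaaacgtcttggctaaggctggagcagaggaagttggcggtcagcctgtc
Slco2a1, chr9:103008237-103008486, plus strand: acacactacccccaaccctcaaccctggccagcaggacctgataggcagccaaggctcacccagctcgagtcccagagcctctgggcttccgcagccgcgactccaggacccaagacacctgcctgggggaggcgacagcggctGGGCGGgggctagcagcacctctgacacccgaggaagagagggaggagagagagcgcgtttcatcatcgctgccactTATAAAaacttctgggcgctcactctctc

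The 10 motifs were searched on both strands, from 250 bases before to 50 after each start, in 32851 promoters of the RefSeq table, which held 9 of the 10 genes in 11 promoters (Ptgis had no entry). The C/EBP site TTGCGCAA lay 69 to 62 bases before the Ptgs2 start, and 0.183% of all promoters held it. The E-box CACGTG lay 16 to 21 bases after that start, overlapping the core TGACG of the cAMP response element on the other strand, and the 2 motifs were in 7.15% and 20.8% of all promoters. The E-box was also found at Ptges2 and Abcc4, and TGACG at Ptges3. The GC box GGGCGG was found at Ptgs2, Ptges, Ptges3, Slco2a1, Abcc4 and Hpgd, and in 35.7% of all promoters.

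The TATA box TATAAA (13.6% of all promoters) stood 29 to 24 bases before the RefSeq start of Slco2a1, and was matched at Hpgd after the start and at the inner start of Pla2g4a. The TGTTCT core of the progesterone receptor site (18.97% of promoters) was present at Ptgs1, Ptges, and the inner starts of Pla2g4a and Abcc4, and an NF-kB site (8.46%) at Ptges3. The full cAMP response element TGACGTCA (1.79%), the AP-1 site TGANTCA (7.81%) and the CArG box (1.63%), which binds serum response factor in muscle genes, were in none of the 11 promoters. A match describes letters and not binding. Of the promoters with peaks in 6 lists, the main one of Pla2g4a had 45.3% G+C and 6 CG pairs, that of Ptgs2 59.3% and 16, and that of Hpgd 58.0% and 12. Of those with a peak in 1 list, Ptgs1 had 50.7% and 6 and Slco2a1 64.0% and 18, and the median over all promoters was 52.7% and 7. The highest values were those of Ptges3 (73.7%, 46 CG pairs) and Abcc4 (72.7%, 41 CG pairs).

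An H3K27ac promoter peak was present in all 3 replicates at 5 genes (Pla2g4a, Ptgs2, Ptges2, Ptges3 and Hpgd), where 45.9% of all protein-coding genes had one. An H3K4me1 promoter peak was present in all 3 replicates at 4 genes (Pla2g4a, Ptgs2, Abcc4 and Hpgd), where the share of all genes was 27.9%. Pla2g4a, Ptgs2 and Hpgd had both, against 24.3% of all genes, and no gene of the 10 lacked a promoter peak in every list, against 32.8%. The first 3 counts lie near the shares of the genome. In the pooled lists, H3K27ac promoter peaks were present at 7 of the 10 genes (all but Ptgs1, Ptges and Slco2a1), against 56.2% of all genes, and H3K4me1 promoter peaks at 8 (all but Ptgs1 and Ptgis), against 56.3%. The −log10 p is 1 value for a whole peak. With only peaks in which it was at least 1.3 (p of 0.05), the count for H3K27ac was 2 (Ptges2 and Ptges3), against 30.2% of all genes. For H3K4me1 it was 1 (Abcc4), against 5.03%, and for both marks 0, against 3.98%.

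The start base itself was under an H3K27ac peak in all 3 replicates at Pla2g4a, Ptges2, Ptges3 and Hpgd, as at 30.3% of all genes. It was under an H3K4me1 peak in all 3 replicates at Pla2g4a and Hpgd alone among the 10, as at 6.96% of all genes. At Ptges2, Ptges3 and Abcc4 the H3K4me1 promoter peaks lay beside the start without covering it in any replicate list, although the pooled H3K4me1 peak at Abcc4, 3154 bases long, did cover it. Over all genes the mean H3K4me1 profile also dipped at the start, between a shoulder upstream and a higher one downstream.

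**Figure D1:**
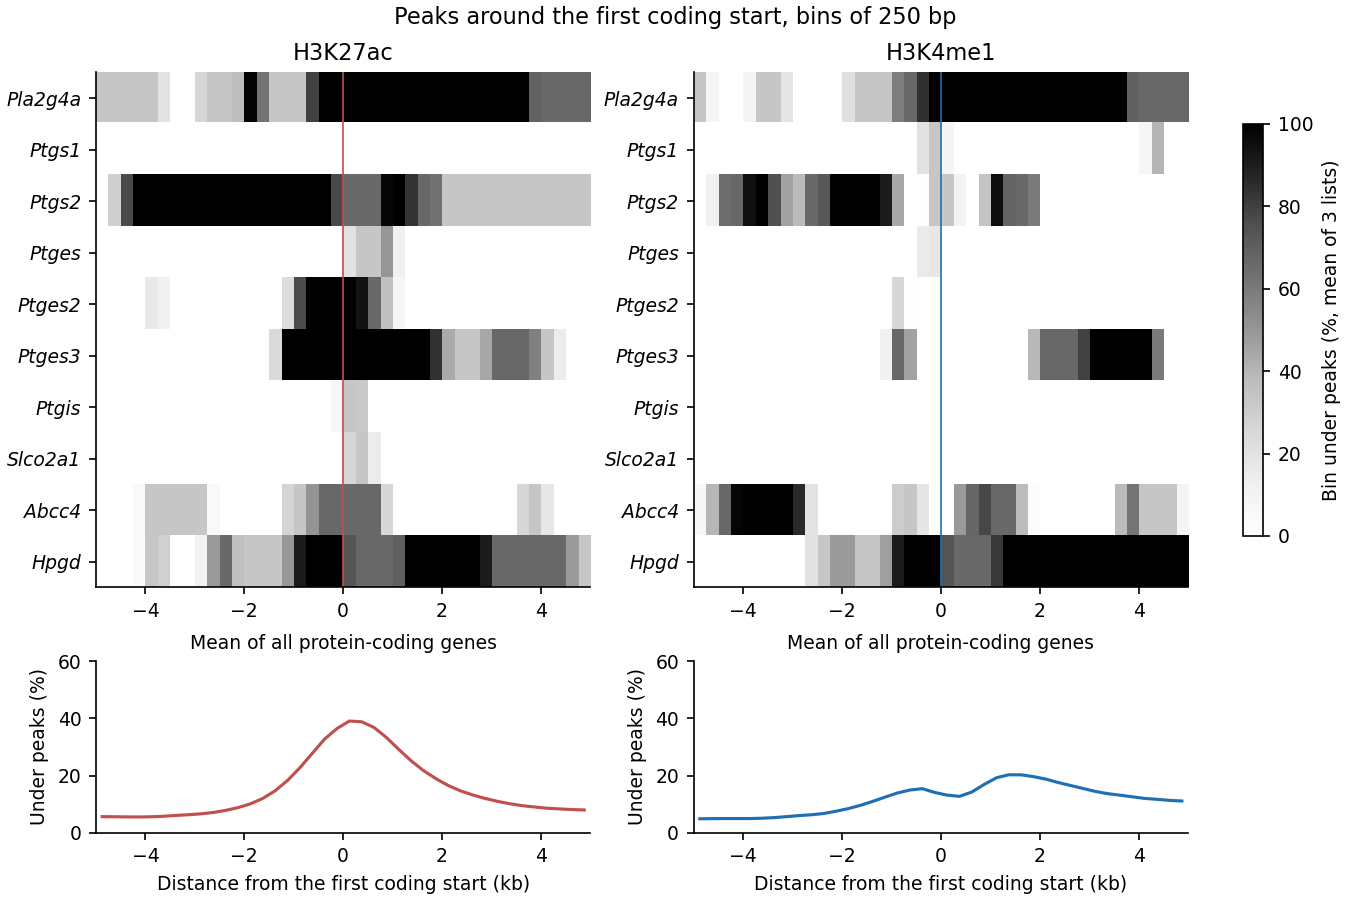
Share of each 250-bp bin under peaks (mean of 3 replicate lists, white 0%, black 100%) by distance from the first coding start of the 10 genes, with the mean of all 21853 protein-coding genes below. H3K27ac covers the starts of Pla2g4a, Ptges2, Ptges3 and Hpgd in all 3 lists, whereas H3K4me1 covers those of Pla2g4a and Hpgd in all 3 and none of the starts of Ptges2, Ptges3 and Abcc4.

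The extent of a mark was measured as the share of a locus under peaks, in percent of its bases. For the 10 genes the median was 10.5% for H3K27ac and 10.2% for H3K4me1, where the median over all genes was 4.97% and 4.45%. Of the 10, 6 lay above the median of all genes for H3K27ac and 8 for H3K4me1, and the H3K27ac means left a gap between Ptges at 5.76% and Ptges2 at 15.3%. Every H3K27ac list lay above every H3K4me1 list at 1 gene (Ptgs2), against 18.3% of all genes. The opposite held at 3 genes (Ptges, Slco2a1 and Abcc4), against 13.2% of all genes. With 3 lists against 3 the two-sided exact permutation test cannot give a p below 0.1, which after Benjamini-Hochberg adjustment over all genes became 0.317, so none of these differences passes a threshold of 0.05. The counts are for 2 antibodies and their calls, not for levels on 1 scale.

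**Figure D2:**
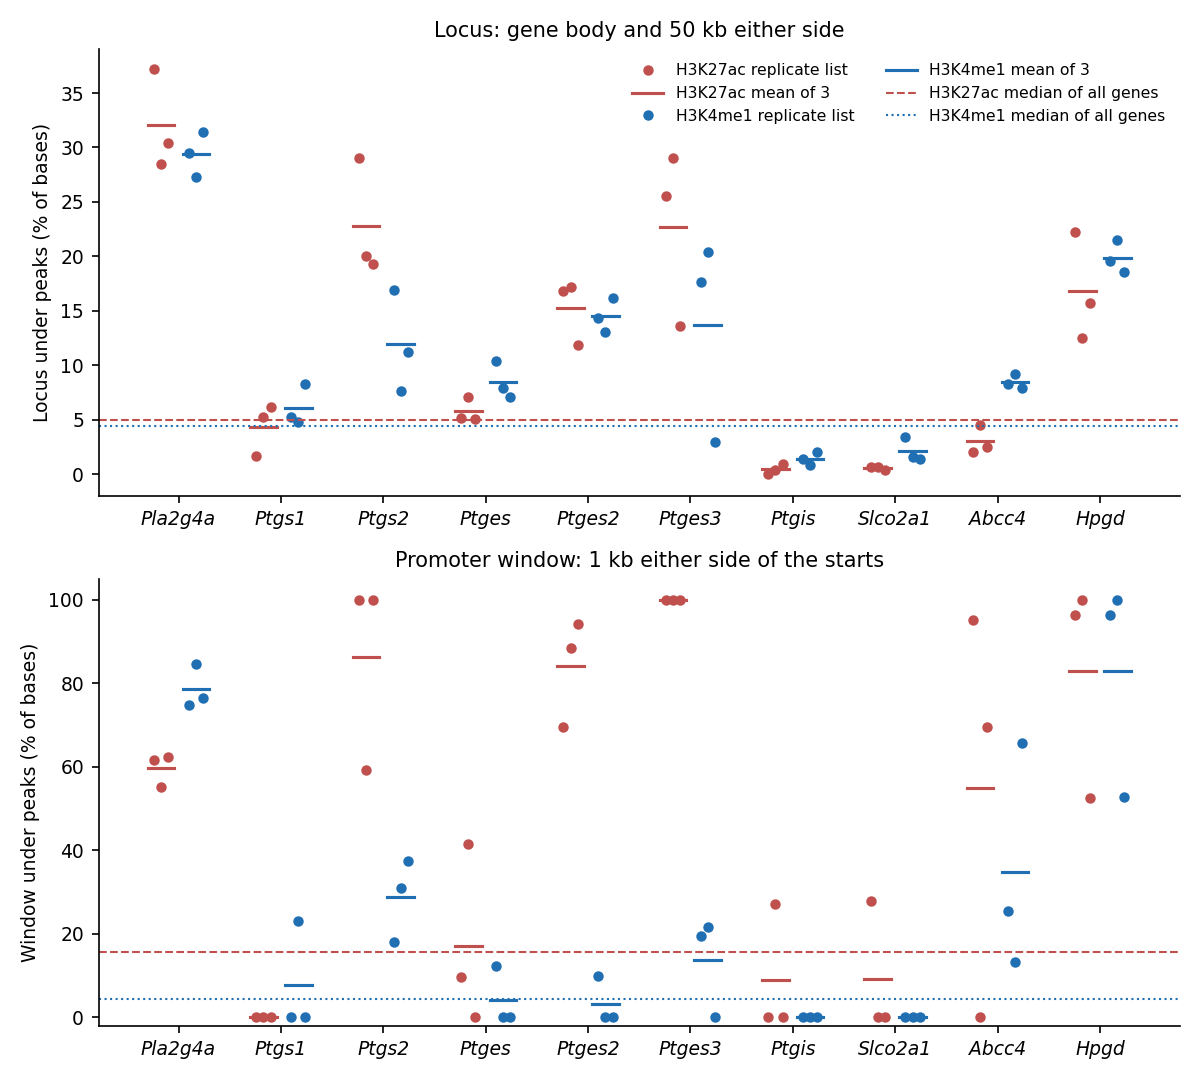
Percent of bases under peaks at each locus (upper panel) and in the promoter windows (lower panel), with 1 point for each replicate list, a bar for the mean of 3 and lines for the median of all protein-coding genes. Pla2g4a is the most covered locus for both marks, Ptgs2 has its 3 H3K27ac points above its 3 H3K4me1 points in both panels, and Ptgis and Slco2a1 are below both medians in the upper panel.

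Pla2g4a encodes the cytosolic phospholipase A2 that releases arachidonic acid, and of the 10 genes it had the largest share of its locus under peaks of both marks. The gene lies on chromosome 1 from 149829618 to 149961290 (GRCm38), on the minus strand. Peaks of H3K27ac covered 37.2%, 28.5% and 30.4% of its locus in replicates 1 to 3, a mean of 32.0% ± 4.55 (SD, n = 3). Those of H3K4me1 covered 29.5%, 27.3% and 31.4%, a mean of 29.4% ± 2.07 (SD, n = 3). The marks overlapped in extent (exact permutation p = 0.5), and the locus was at percentile 99.6 of all genes. Set over the share of the genome under peaks in the same list, H3K27ac lay above H3K4me1 in every list (7.01, 7.59 and 9.10 times against 5.83, 5.51 and 6.62 times), so the call here depends on the scale. On that scale 26.1% of all genes had H3K27ac above in every list, Ptgs2 and Pla2g4a among them, and 8.05% had H3K4me1 above, Slco2a1 and Abcc4 among them.

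Most of the marked chromatin lay inside Pla2g4a. The gene held 29 to 35 intragenic H3K27ac peaks in a list and 19 to 31 intragenic H3K4me1 peaks, and 240 of the 805 peaks at the 10 loci belonged to its locus. At the main start a peak of 5.68 to 11.1 kb covered the start base in all 6 lists and ran mostly into the gene. In H3K27ac replicate 1 it reached from 751 bases before the start to 10321 after it, and in H3K4me1 replicate 3 from 1909 before to 3765 after. Coverage of these peaks was modest, between 6.61 and 8.08 in multiples of the genome mean.

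A further coding start of Pla2g4a lies 38.9 kb inside the gene, and it set the marks apart. In the window of 1 kb on either side of it, H3K4me1 peaks covered 80.4%, 72.2% and 52.5% of bases, and H3K27ac peaks 35.0%, 29.9% and 24.2%. At the main start the marks overlapped, with 87.6%, 79.9% and 100% for H3K27ac and 69.1%, 97.0% and 100% for H3K4me1. With both windows joined, Pla2g4a was the only member whose promoter bases were covered more by every H3K4me1 list (74.9% to 84.7%) than by every H3K27ac list (55.2% to 62.4%), which held for 1.71% of all genes. The test gave an exact permutation p of 0.1, its lower limit with 3 lists a mark, and an adjusted p of 0.358.

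Stretches away from promoters under H3K27ac peaks of at least 2 of 3 replicates that touched such a stretch of H3K4me1 (regions of both marks below), a pattern usually read as an active enhancer, were densest at Pla2g4a. There were 31, of which 28 lay inside the gene, and they amounted to 134 per Mb. The 10 loci together had 61, or 37.3 per Mb, and the autosomes and X, gene-poor stretches included, 14.8 per Mb. Hpgd had 71.2 per Mb, Ptgs2 37.0, Ptges2 27.3, Ptgs1 24.6, Ptges 21.4 and Abcc4 15.5, whereas Slco2a1 (9.65), Ptges3 (8.45) and Ptgis (0) lay below the genome. The counts rest on weak peaks, since over the 10 loci the 61 such regions became 36 with all 3 replicates of each mark required and 6 with peaks of a −log10 p of at least 1.3. The longest H3K27ac stretch among them ran over 5767 bases, 5063 of them also under H3K4me1, 124 to 130 kb past the start near the 3′ end of the gene, and was met by peaks of all 6 lists. A region of 5442 bases lay 66.2 to 71.6 kb past the start and was under H3K4me1 over its whole length.

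Ptgs1 and Ptgs2 encode the cyclooxygenases COX-1, usually the constitutive form, and COX-2, usually the inducible one, and the first had few peaks where the second had many. Ptgs2 (chromosome 1, 150100031 to 150108227, plus strand) starts 139 kb from the start of Pla2g4a, and the pair points away from each other with no protein-coding gene between. Peaks covered 29.0%, 19.995% and 19.3% of the Ptgs2 locus for H3K27ac and 16.9%, 7.67% and 11.2% for H3K4me1. Every H3K27ac list was thus above every H3K4me1 list, by 10.8 percentage points in the mean (22.8% ± 5.42 against 11.9% ± 4.67, SD, n = 3; exact permutation p = 0.1, adjusted p = 0.317). Restricted to peaks with a −log10 p of at least 1.3 the difference was −0.131 points and the lists overlapped, and they also overlapped in the gene body alone (32.6 points).

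The H3K27ac peaks at the Ptgs2 promoter reached far upstream. They began 4546, 4675 and 4330 bases before the start in replicates 1, 2 and 3, and ended 8174 bases after it, 173 bases before it and 1375 bases after it. Their coverage was 6.84, 7.60 and 7.76 times the genome mean, and their folds stood between percentiles 79.8 and 83.9 of their lists. The −log10 p was 1.20, 1.22 and 1.24, so none of the 3 reached a p of 0.05. In replicate 2 another peak ran from 768 to 1971 bases after the start, which was itself left uncovered.

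H3K4me1 took the flanks of the same region. Of the replicates, only the third had a peak over the Ptgs2 start, of 577 bases, and the pooled H3K4me1 peak covered it too. In replicate 1 the peaks ended 852 bases before the start and began again 1038 bases after it, and in replicate 2 they ended 819 bases before it and began again 768 bases after it. That last peak had the same ends as the H3K27ac peak of replicate 2, a list called against the same IgG library. Of the promoter window, H3K27ac peaks covered 100%, 59.2% and 100% and H3K4me1 peaks 17.9%, 31.1% and 37.4%. Ptgs2, Ptges2 and Ptges3 were the members in which every H3K27ac list covered more of the window than every H3K4me1 list, as in 26.2% of all genes. A noncoding antisense gene, Ptgs2os, overlaps this window, and peaks carry no strand, so the marks cannot be assigned to either gene.

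**Figure D3:**
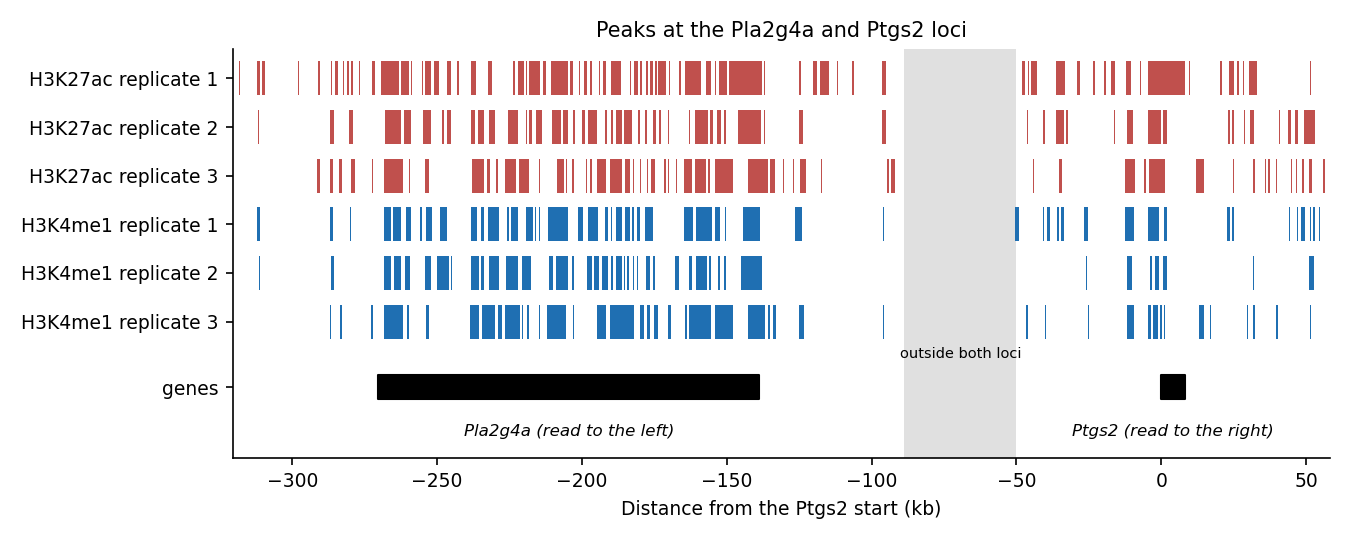
Peaks of the 6 replicate lists at the neighbouring Pla2g4a and Ptgs2 loci, each bar 1 peak, by distance in kb from the Ptgs2 start, with the gene bodies in black and the stretch outside both loci in grey (peaks not drawn there). Peaks are spread along the body of Pla2g4a in all 6 lists, a block of H3K27ac lies over and upstream of the Ptgs2 start, and a peak about 10 kb upstream of Ptgs2 recurs in every list.

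Of the 4 regions of both marks near Ptgs2, 3 were met by all 6 lists, and 1 of these lay upstream, from 12.0 to 9.85 kb before the start. Peaks over it had 9.80, 11.6 and 9.58 times the mean coverage for H3K27ac and 10.2, 9.30 and 8.27 times for H3K4me1. Those values are above every promoter peak of Ptgs2 in the same lists. The 139 kb between the starts of Pla2g4a and Ptgs2 were under H3K27ac peaks over 28.3%, 14.5% and 19.9% and under H3K4me1 peaks over 15.9%, 7.11% and 11.8% of their length, and the lists of the marks overlapped there.

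Ptgs1 (chromosome 2, 36230426 to 36252272, plus strand) had no H3K27ac promoter peak in any list, as 37.5% of all genes had none. Its nearest H3K27ac peaks lay 13.7, 31.3 and 20.5 kb past the start, the last 2 of them with coverage of 4.84 and 5.16 times the genome mean, where the lowest coverage in any list was 4.03 to 4.94 times. An H3K4me1 peak of replicate 2 covered the start over 461 bases, and in replicates 1 and 3 the nearest were 4.23 and 13.2 kb away. Of the locus, 1.64%, 5.24% and 6.17% was under H3K27ac peaks and 5.20%, 4.80% and 8.27% under H3K4me1 peaks, which put it at percentile 51.9. The 3 regions of both marks at this locus all lay beyond the 3′ end, 31.3 to 49.4 kb past the start.

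The synthases that turn prostaglandin H2 into prostaglandin E2 differed at their starts. Ptges3 encodes p23, which is also a cochaperone of HSP90 in most cells, Ptges2 encodes a membrane-associated synthase present in many tissues, and Ptges encodes the inducible microsomal synthase that is usually coupled to COX-2. The H3K27ac promoter peaks of Ptges3 had the highest folds of the 10 genes, at 2.55, 2.47 and 2.26 (percentiles 97.6 to 99.6 of their lists), with coverage of 15.1, 13.0 and 17.2 times the genome mean. They spanned 3377, 5737 and 3136 bases and covered the whole promoter window in every list. H3K4me1 covered 19.4%, 21.6% and 0% of that window, with peaks that ended 602 and 556 bases before the start in replicates 1 and 2.

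Ptges2 had the same arrangement over a shorter stretch. Its H3K27ac promoter peaks measured 1390, 1942 and 1945 bases, with coverage of 19.2, 14.2 and 15.2 times the genome mean, the first of these the highest of any promoter peak of the 10 genes in the replicate lists. H3K4me1 left the window empty in replicates 2 and 3 and covered 9.85% of it in replicate 1. That peak lay 746 bases before the start, whereas the nearest H3K4me1 peaks of replicates 2 and 3 were 22.2 and 21.8 kb away. Ptges2, Ptges3 and Ptgs2 each had an exact permutation p of 0.1 for the window (adjusted p = 0.358).

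The wider loci of Ptges2, Ptges3 and Ptges belong largely to other genes. Of 57 flanking peaks at Ptges2 56 lay over a neighbour, chiefly Slc25a25, and of 40 at Ptges3 38 did, over Naca, Atp5b, Baz2a or Prim1. At Ptges, 28 of 32 did, over Prrx2, Tor1b or Tor1a. The locus shares of 15.3% ± 2.99 and 14.5% ± 1.54 at Ptges2, and of 22.7% ± 8.07 and 13.7% ± 9.39 at Ptges3 (H3K27ac and H3K4me1, SD, n = 3), therefore describe those neighbours too. In replicate 3 the Ptges3 locus had 13.6% under H3K27ac and 2.95% under H3K4me1, far below the 25.5% and 29.0% and the 17.6% and 20.4% of the other replicates.

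Ptges (chromosome 2, 30889471 to 30929863, minus strand; coding start at 30903297) was marked away from its coding start. No list of either mark covered the start base. H3K27ac promoter peaks lay 807 and 101 bases past the start in replicates 1 and 2, over 286 and 830 bases, and there was none in replicate 3. An H3K4me1 promoter peak of 245 bases lay 120 bases before it in replicate 1 and none in the others.

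Instead, all 6 lists had a peak 23.6 to 26.7 kb upstream of the coding start of Ptges, at the 5′ end of its longest noncoding transcript. The H3K27ac peaks there spanned 1615, 2890 and 2845 bases with coverage of 12.3, 11.2 and 12.8 times the genome mean, and those of H3K4me1 spanned 2879, 2680 and 2686 bases with 12.2, 11.4 and 11.6 times. Coverage at this site was within a narrow range, from 11.2 to 12.8 times, whereas the H3K27ac peak of replicate 1 was shorter than the others. Of the whole Ptges locus, neighbours included, H3K4me1 covered 10.4%, 7.92% and 7.09% and H3K27ac 5.10%, 7.09% and 5.09%, so every H3K4me1 list was above, but the nearest lists of the marks were equal to 3 digits (exact permutation p = 0.1, adjusted p = 0.317). The lists overlapped with flanks of 25 or 100 kb, in the gene body alone and over the genome share, and with peaks of a −log10 p of at least 1.3 the difference was 0.368 points.

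Ptgis, which encodes prostacyclin synthase, was the least marked of the 10 (chromosome 2, 167191805 to 167240604, minus strand). H3K27ac covered 0%, 0.368% and 0.895% of its locus and H3K4me1 1.36%, 0.791% and 2.05%, at percentile 20.2 of all genes. A single promoter peak, in H3K27ac replicate 2, ran over 547 bases from 57 before the start to 489 after it with coverage of 10.8 times. No H3K4me1 list had a promoter peak, as 42.7% of all genes had none, but each had a peak 9.58 to 10.9 kb upstream. There was no region of both marks at this locus.

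Slco2a1 encodes the carrier that takes prostaglandins up into cells, and Abcc4 the ABC transporter (MRP4) that exports them. Slco2a1 (chromosome 9, 102988712 to 103096002, plus strand) had H3K27ac over 0.618%, 0.663% and 0.384% of its locus and H3K4me1 over 3.44%, 1.60% and 1.42%, with every H3K4me1 list above (exact permutation p = 0.1, adjusted p = 0.317), although the lists overlapped in the gene body alone. Its only promoter peak in a replicate was one of H3K27ac in replicate 1, from 52 to 609 bases past the coding start at 103008002, a stretch that holds the RefSeq start 485 bases past it. The pooled H3K4me1 list had a promoter peak that no H3K4me1 replicate had. Peaks of H3K4me1 recurred in all 3 replicates 28.2 to 31.1 kb upstream of the coding start and 52.3 to 53.2 kb inside the gene, where no H3K27ac list had any.

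Abcc4 (chromosome 14, 118482692 to 118706219, minus strand) was a locus of H3K4me1. That mark covered 8.23%, 9.23% and 7.89% of it, and H3K27ac 2.01%, 4.50% and 2.53% (8.45% ± 0.693 against 3.01% ± 1.32, SD, n = 3; exact permutation p = 0.1, adjusted p = 0.317). The order held over 25 and 100 kb flanks, in the gene body alone, in both stricter sets of peaks and over the genome share. There were 22 to 35 H3K4me1 peaks in a list, 15 to 27 of them intragenic, against 10 to 16 of H3K27ac. Peaks of H3K4me1 at this locus recurred in both other replicates in 54.3% of cases (44 of 81), and those of H3K27ac in 8.33% (3 of 36). H3K4me1 replicates 1 and 2 share an IgG library and no H3K27ac replicates do. The difference in recurrence between the marks therefore cannot be told apart from the sharing of a control.

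At the Abcc4 start H3K27ac peaks covered the start in replicates 1 and 3, with coverage of 9.04 and 10.4 times, and there was none in replicate 2, where the nearest lay 2.72 kb upstream. H3K4me1 promoter peaks began 324, 748 and 310 bases past the start in replicates 1, 2 and 3, and replicate 3 had another from 981 to 361 bases before it. In replicates 1 and 3 these peaks overlapped the H3K27ac peak of the same number. In addition, an H3K4me1 peak lay between 2678 and 4802 bases upstream in every list, at percentiles 98.2 to 99.8 of fold, the highest H3K4me1 folds among all peaks at Abcc4 in replicates 1 and 2.

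Hpgd encodes 15-hydroxyprostaglandin dehydrogenase, which begins the breakdown of prostaglandins, and lies on chromosome 8 from 56294585 to 56321043 (plus strand). Both marks covered its start in all 6 lists. Peaks of H3K27ac over the start measured 5545, 5487 and 1173 bases and those of H3K4me1 6003, 8049 and 1157 bases. In lists of the same number the peaks of the 2 marks began at nearly the same base, at 929 bases before the start in both lists of replicate 1, 2560 and 2652 in replicate 2, and 1120 and 1103 in replicate 3. The promoter window was covered over 96.5%, 100% and 52.6% by H3K27ac and 96.5%, 100% and 52.7% by H3K4me1. The lists of replicates 2 and of replicates 3 share an IgG library, those of replicate 1 do not.

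H3K4me1 covered 19.5%, 21.5% and 18.5% of the Hpgd locus and H3K27ac 22.2%, 12.5% and 15.7%, at percentile 95.2. The marks overlapped. Without H3K27ac replicate 1, every H3K4me1 list was above (difference −5.75 points), and also among peaks of at least 5 times the genome mean (−7.25 points), but over the genome share the difference was 0.0424 and the lists overlapped. Of the 9 regions of both marks 7 were flanking, 4 of them before the start, between 24.5 and 7.68 kb upstream, and 3 more between 46.4 and 51.7 kb past it.

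Pla2g4a, Ptgs2 and Hpgd, the 3 genes with promoter peaks in all 6 lists, also share a base composition that the rule did not use. Their loci had 39.2%, 39.97% and 38.4% G+C, at percentiles 11.2, 15.4 and 6.76 of all loci, and the other 7 had 45.2% to 50.5%. Loci below 40% G+C were usually little marked, with a median of 0.714% under H3K27ac and 0.139% under H3K4me1 over 3401 genes, and 17.3% of these genes had promoter peaks in all 6 lists, against 30.5% at 40% to 45% G+C, 22.1% at 45% to 50% and 18.2% at 50% or more. Pileup and fold together imply a local control level for each peak, and its median in a list ranged from 2.01 to 2.16 times the genome mean at these 3 loci and from 3.80 to 4.43 times at Ptges and Ptges2. The other loci overlapped these ranges or lay between them, at 2.01 to 2.70 for Ptgs1, 2.01 to 5.07 for Ptges3, 2.02 to 4.03 for Ptgis, 2.26 to 3.22 for Abcc4 and 3.19 to 6.32 for Slco2a1.

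That level is computed from the coverage and fold of the same peaks, and folds span a narrow range, so it moves with coverage by construction and is no separate measurement. Median peak coverage was 4.58 to 6.56 times the genome mean in the lists at Pla2g4a, Ptgs2 and Hpgd, and 10.5 to 12.9 times at Ptges and Ptges2. Over the genome the same order held, with a median coverage of 4.33 to 5.78 times and a control of 2.00 to 2.02 times for peaks in 100-kb tiles below 40% G+C, and 10.6 to 11.8 times and 3.90 to 4.32 times in tiles of 50% or more. What part base composition had in the differences between the genes was not tested.

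**Figure D4:**
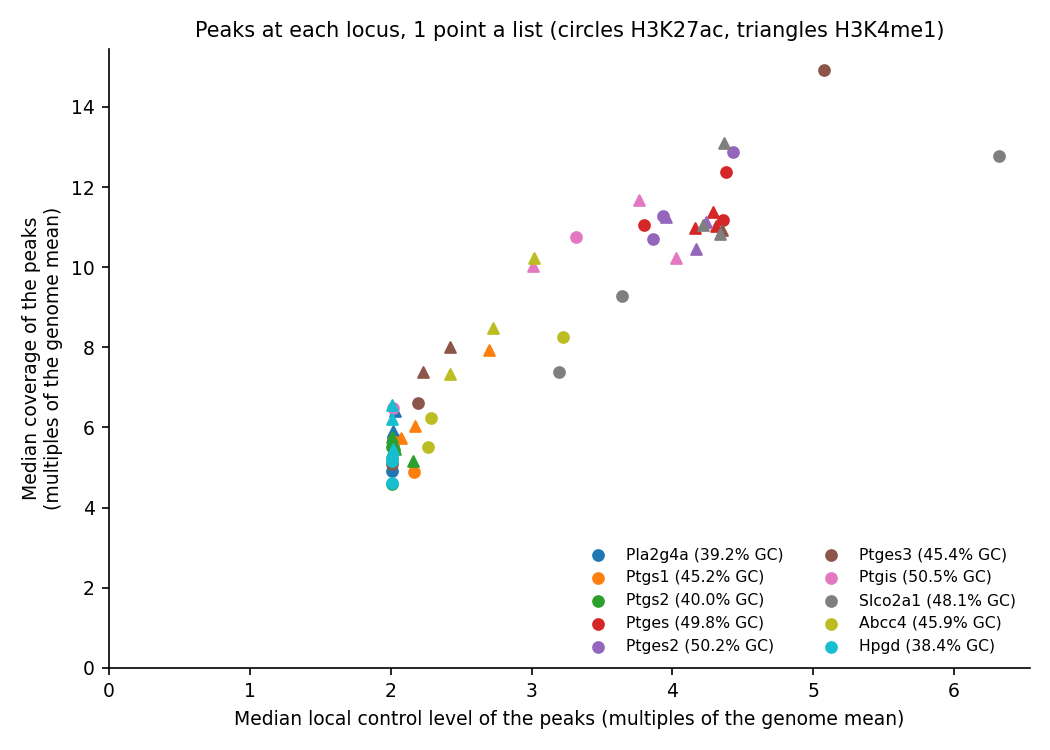
Median coverage of the peaks at each locus against the median local control level computed from the coverage and fold of the same peaks, both in multiples of the mean of the genome, with 1 point for each replicate list (circles H3K27ac, triangles H3K4me1) and the G+C content of the locus in the key. Points of Pla2g4a, Ptgs2 and Hpgd stand together at control levels of 2.01 to 2.16 and those of Ptges and Ptges2 at 3.80 to 4.43, with coverage of 10.5 to 12.9 times, and the 2 axes are tied by construction.

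Taken over the 10 loci, peaks recurred in a larger share than all peaks in each list, but the loci differed widely and nothing was tested. Of the H3K27ac peaks of a list, 40.1% to 50.8% met a peak in both other replicates, against 18.1% to 30.1% over the genome, and of the H3K4me1 peaks 47.3% to 60.5%, against 41.8% to 50.6%. Only H3K4me1 had replicates called against the same IgG library, so these shares do not compare the marks. Pla2g4a supplied 140 of the H3K27ac peaks, with 58.6% recurring, and Ptges2, largely over its neighbours, had 78.1%. The shares at Abcc4 (8.33%), Slco2a1 (16.7%) and Ptgis (0%) were below those of the genome. Long peaks of 5 kb or more made up 4.47% of those at the loci (36 of 805) and 2.09% of all peaks. Of these 36, 20 were at Pla2g4a, 7 at Ptges3, 6 at Hpgd, 2 at Ptgs2 and 1 at Ptgs1.

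The other enzymes and carriers of the prostanoid pathway were read in the same way. Of 17 such genes found in the annotation, 8 had an H3K27ac promoter peak in all 3 replicates (45.9% of all genes did), 4 an H3K4me1 peak in all 3 (27.9% of all genes), and 3 had peaks in all 6 lists (24.3% of all genes), counts near the shares of the genome. The 3 were Cbr1, a carbonyl reductase, Pla2g6, a calcium-independent phospholipase A2, and Abcc1, an exporter of conjugated lipids. Ptgds, the lipocalin-type prostaglandin D synthase, Pla2g4b, Pla2g4c, Pla2g5 and Pla2g10 had no promoter peak in any list, as 32.8% of all genes had none. Of 6 genes of the lipoxygenase branch, which turns arachidonic acid into leukotrienes and related lipids, none had promoter peaks in all 6 lists, and Alox5 and Alox15 had none in any. Among 9 prostanoid receptors, Ptger1 and Ptger2, which bind prostaglandin E2, had promoter peaks in all 6 lists, and Ptger3 and Ptgdr in none, to be read against the same 24.3% and 32.8% of all genes.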

How the data were processed

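Peaks of H3K27ac and H3K4me1 (3 replicate lists and 1 pooled list each) were used as deposited; the IgG libraries entered only as controls of the authors' calls. Per the file headers, the authors called broad peaks from unique paired fragments without duplicates with MACS 2.2.7.1, at p 0.05 for strong and 0.1 for weak regions, with the larger library scaled to the smaller. The labels also name cutadapt, Bowtie2 and the GRCm38.p5 build. The deposited pileup is a signal of fragment coverage, the deposited fold is a ratio of pileup to local control with 1 added to each, and −log10 p is as the authors' caller gave it (−log10 q-values were not used). Pileup was divided here by the mean coverage of the genome.

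Starts and genes were those of GENCODE M21. Regions of both marks were stretches under H3K27ac peaks of at least 2 of 3 replicates that touched such a stretch of H3K4me1 by at least 1 base and lay outside promoter windows, so their lengths are those of the H3K27ac stretch. The 2 marks were compared by the two-sided exact permutation test (3 lists against 3) with Benjamini-Hochberg adjustment over 21853 genes, and counts were set beside the share of all genes. The test was checked on simulated data. Python 3.11.15, numpy 2.4.6 and pandas 2.3.3 were used. Named genes were all 10 members and the genes of the lists. Members and lists were chosen with earlier results of these data known, and the comparisons of promoter windows, start bases, local control level, G+C content and shared peak ends were chosen after the peaks had been seen. P-values measure only the spread between these samples, which may be technical.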

Additional observations from a re-analysis of the deposited data

How the results depend on the processing

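Of 130 differences for single genes, 97 kept their direction and order of lists, 6 lost the separation of the lists, 14 gained it and 13 reversed. Of the counts, 68 of 84 stayed within 1.5 times. The count of genes with an H3K4me1 promoter peak in all 3 replicates (4) was 2 with a window of 250 bp, 1 with a −log10 p of at least 1.3 and 8 in the pooled list, and that for H3K27ac (5) was 2 with that −log10 p. The count with both marks (3) was 5 with 3 kb windows, 0 with the −log10 p filter, 5 in at least 2 of 3 replicates and 6 in the pooled lists. Leaving out each replicate gave 5 to 6, 4 to 5 and 3 to 4. Loci with every H3K27ac list above (1) numbered 2 with the −log10 p filter, over the genome share and with the replicate block, and 1 to 3 with a replicate left out (3 without H3K27ac replicate 3). Loci with every H3K4me1 list above (3) numbered 1 in the gene body alone, 5 at a coverage of at least 5 times, and 3 to 4 with a replicate left out. Regions of both marks (61) numbered 36 with all 3 replicates, 6 with the −log10 p filter and 49 to 52 with a replicate left out.

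Differences reversed as follows (H3K27ac minus H3K4me1, percentage points). With 100 kb flanks they were 0.717 for Ptgs1 and −0.0122 for Ptges2, and in the gene body alone −1.11 for Pla2g4a, −2.63 for Ptges3, 0.0574 for Ptgis and 1.85 for Hpgd. With the −log10 p filter they were −0.434 for Pla2g4a, −0.131 for Ptgs2, 0.368 for Ptges and 0.292 for Hpgd. At a coverage of at least 5 times Pla2g4a gave −1.83, and over the genome share, in multiples of it, Hpgd gave 0.0424. With a replicate left out, Ptges2 ranged from −0.191 to 2.50. The cause of these changes was not tested.

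Deviations of same-numbered lists of the 2 marks correlated at −0.0881, 0.319 and 0.468 over all genes for replicates 1, 2 and 3. Lists sharing an IgG library, those of replicates 2 and of replicates 3 among them, correlated at 0.319 to 0.468. A pairing by number therefore cannot be told apart from a shared control. With the replicate block the differences were 9.05 for Ptges3 and −0.981 for Ptgis with all pairs on 1 side, and the sign-flip test cannot go below an exact p of 0.25. The depth of IgG, 3110985 to 3713369 fragments, limits the calls: a missing peak was not detected at this depth.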
